A study of Mus musculus with 4 samples.

Results

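Transcripts of 10 genes of the BCL2 family were followed in mouse E14 embryonic stem cells: the guardians Bcl2, Bcl2l1 and Mcl1, the BH3-only genes Bcl2l11, Bbc3, Pmaip1, Hrk and Bid, and the effectors Bax and Bak1. They were taken by symbol from a deposited table of 55353 symbols, and all 10 were found. The control group was wild-type E14 cells (2 libraries) and the other group was E14 cells with the genotype Ssrp1 KO, made with Cas9 and a guide RNA (2 libraries). Both groups carry the strain label 12910la and were grown without a differentiation stimulus on gelatin, in serum with LIF, GlutaMAX, nonessential amino acids, β-mercaptoethanol and penicillin-streptomycin. Ssrp1 encodes a subunit of the histone chaperone FACT. The treatment text also describes wild-type cells given the pSuper puro vector and puromycin for a Usp7 shRNA experiment, and does not say whether the control libraries came from such cells. Neither the number of knockout clones nor the culture behind each library is given, so p-values cover the spread of these samples alone, which could be purely technical. Treated samples are called the labelled knockouts below, since the targeted transcript was not lower in them.

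The BCL2 family decides whether a cell opens its outer mitochondrial membrane and dies by apoptosis. Guardians hold the effectors BAX and BAK in check, BH3-only proteins bind the guardians or wake the effectors, and active effectors form pores that release cytochrome c to the caspases. Mouse embryonic stem cells are known to die readily after DNA damage, and MCL1 is needed in the early embryo.

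In the labelled knockouts, the BH3-only genes Hrk and Pmaip1 fell, by 8.39-fold and 1.93-fold, and the effector gene Bak1 rose 1.56-fold. The BH3-only gene Bcl2l11 and the guardian gene Bcl2l1 rose 1.36-fold and 1.28-fold, and Mcl1, the most abundant of the 10, fell 1.13-fold. Bid and Bax did not pass the test, nor did Bbc3. Of the 9 genes with enough counts to be tested, 3 rose and 3 fell past an adjusted p of 0.05 (edgeR quasi-likelihood test, Benjamini-Hochberg adjustment over all 17482 genes tested). Over all genes tested 33.6% were called, 16.5% higher and 17.2% lower. The 10 genes were chosen with results of these data known, so their share is a description.

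A pair of RefSeq promoter windows is shown, because Hrk and Bcl2l11 are BH3-only genes called in opposite directions. Each runs 5′ to 3′ on the plus strand of GRCm38.p6 and stops short of the next annotated exon, at chr5:118169514-118169747 for Hrk and at chr2:128125788-128126037 for the upstream start of Bcl2l11. The Hrk window lies inside the annotated gene, in an intron of transcripts that start further upstream. Capitals mark matches to the motifs searched.
Hrk: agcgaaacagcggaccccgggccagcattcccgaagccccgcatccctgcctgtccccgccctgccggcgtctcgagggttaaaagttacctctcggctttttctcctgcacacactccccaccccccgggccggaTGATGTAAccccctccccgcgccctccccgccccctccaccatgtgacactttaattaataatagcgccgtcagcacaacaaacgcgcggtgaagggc
Bcl2l11: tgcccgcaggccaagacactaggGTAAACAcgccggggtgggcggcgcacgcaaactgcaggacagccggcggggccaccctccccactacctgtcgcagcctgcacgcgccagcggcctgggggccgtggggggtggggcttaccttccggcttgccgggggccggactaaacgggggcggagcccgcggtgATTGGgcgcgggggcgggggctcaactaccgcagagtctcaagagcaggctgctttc
On both strands of the 250 bases before each start, 7 motifs were searched: the ATF4-C/EBP element TGATGNAA, the CRE TGACGTCA, the AP-1 site TGANTCA, the FOXO site TGTTTAC, the E-box CACGTG, the CCAAT box and the p53 half-site. The capitals in the Hrk window are an ATF4-C/EBP element 114 bases before the start, a motif held by 3.45% of 32851 windows of this length. Those in the Bcl2l11 window are a FOXO site (3.17% of windows) 227 bases before the start and a CCAAT box (33.8%) 57 bases before it, both on the opposite strand, and neither overlaps the other. Among the other members, a FOXO site was found before 1 of the 3 Bbc3 starts, an E-box (6.02%) before another Bbc3 start and before Bax, and a p53 half-site (7.13%) before Bax. CCAAT boxes also lay before the other Bcl2l11 start and 1 Bbc3 start. The CRE (1.55%) and the AP-1 site (6.75%) were found before none of the 14 starts. Entries were found for 9 of the 10 genes, all but Pmaip1. A match describes the letters and shows no binding.

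Total counts ranged from 22611434 to 25344190 per library. The targeted gene Ssrp1 was at 281.9 and 305.4 normalised CPM (counts relative to the library total, scaled by TMM) in controls and at 305.1 and 326.9 in the labelled knockouts, which is 0.11 ± 0.06 in log2 fold change (SE, n = 2 per group; edgeR adjusted p 0.226). Counts per gene do not show a small Cas9 lesion. Supt16, the gene of the other FACT subunit, had a log2 fold change of 0.19 (edgeR adjusted p 0.018), a call lost without either control, and Usp7 one of 0.40 (2.0e-05). Embryonic stem cell markers (Pou5f1, Sox2, Nanog and 6 others, none at 0) summed to 4753 and 4919 CPM in controls, against 3894 and 3832 CPM in the labelled knockouts, and went both ways: 6 were called lower and 2, Nanog and Utf1, higher. Summed levels of other cells' markers differed between the groups too. The 8 markers of 2-cell-like cells went from 0.408 to 0.906 up to between 78.3 and 82.0 CPM, with 4 of them at 0 in both controls and 7 of 7 tested called higher, and the 7 of primitive endoderm from 9.30 to 11.7 up to between 31.0 and 35.5 CPM (5 of 6 higher). The 7 neural markers went from between 156.5 and 163.5 to between 73.8 and 80.3 CPM (3 of 6 tested called lower), the 7 of trophoblast from between 82.2 and 83.3 to between 129.6 and 137.2 CPM (2 of 4 higher), and the 6 of mesendoderm from between 7.43 and 7.47 to between 9.53 and 10.9 CPM (1 of 3 higher). The 7 fibroblast markers summed to 129.9 CPM in each control and to between 87.1 and 87.7 CPM in the labelled knockouts, a difference made almost wholly by Vim, which fell from 111.1 to 69.5 CPM and was the 1 called of 3 tested. Col1a1 was at 1.99 and 2.44 CPM and Col3a1 at 0 and 0.317 CPM in controls and labelled knockouts, and S100a4 was at 0 throughout. Gm26917 and Gm42418, whose sequence is like ribosomal RNA, took 9.72% and 10.3% of the counts in controls and 6.30% and 4.64% in the labelled knockouts. With these 2 genes left out before scaling, the same 6 BCL2 family genes were called in the same directions. Mitochondrial genes took 1.34% and 1.26% of the counts in controls and 1.48% and 1.81% in the labelled knockouts, the highest share in knockout replicate 2. The part of the marker genes and of the mitochondrial share in the results was not tested. In bulk RNA, fewer cells of a type and less RNA per cell cannot be told apart.

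The order of the 10 genes by level can be read per length of transcript, as normalised CPM per kilobase of annotated exon. In controls Mcl1 stood at 246.3 ± 13.3 (SD, n = 2), by this length about a factor of 10 above the next gene, Bax at 24.4 ± 1.35. Pmaip1 at 14.8 ± 0.016 and Bak1 at 13.3 ± 2.07 differed by less than the spread of Bak1, and Bid followed at 7.64 ± 0.573. Bbc3 at 5.27 ± 1.35 overlapped both Bcl2l1 at 5.62 ± 0.505 and Bcl2l11 at 4.92 ± 0.321, while both Bcl2l1 values lay above both Bcl2l11 values. Hrk at 2.01 ± 0.357 and Bcl2 at 0.014 ± 0.0077 closed the order. In the labelled knockouts Mcl1 at 218.4 ± 10.1 and Bax at 25.2 ± 1.93 still came first, and Bak1 at 20.6 ± 3.995 took the third place from Pmaip1. Bid at 7.71 ± 0.131 and Pmaip1 at 7.67 ± 1.85 did not differ beyond their spread, and Pmaip1 also overlapped Bcl2l1 at 7.22 ± 0.091, Bbc3 at 6.94 ± 0.533 and Bcl2l11 at 6.67 ± 0.379. Hrk was at 0.238 ± 0.050 and Bcl2 at 0.055 ± 0.025.

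**Figure D1:**
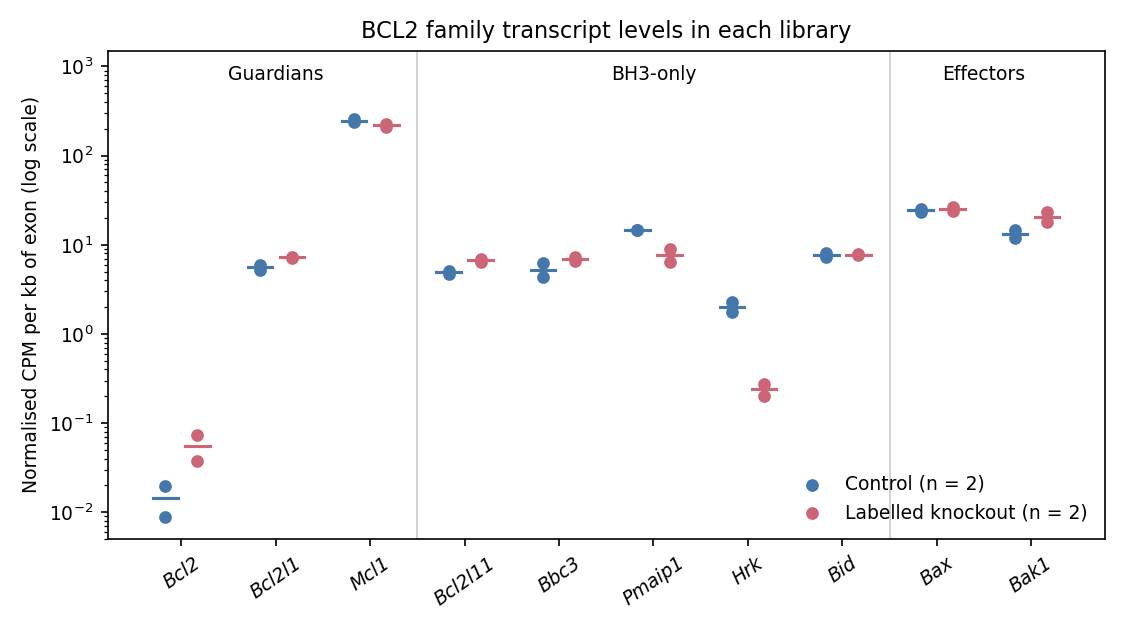
Transcript level of each BCL2 family gene in each of 4 libraries, as normalised CPM per kilobase of exon on a log axis, with points for libraries and a bar at each mean (n = 2 per group). Mcl1 is near 246.3 in controls and Bcl2 near 0.014, and Hrk has the widest gap between groups among the 9 tested genes.

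Gene positions are those of GENCODE M21 on mm10, where each of the 10 is a protein-coding gene. Among the guardians, Mcl1 (chr3:95658788-95663176, plus strand) encodes a short-lived protein that restrains BAK and BAX. It was at 809.6 and 873.9 CPM in controls and at 722.1 and 771.0 CPM in the labelled knockouts. Every control was above every labelled knockout, by a margin smaller than the gap between the controls. In log2 units Mcl1 changed by -0.17 ± 0.06 (SE, n = 2 per group; edgeR adjusted p 0.034). The call was lost without control 1 (adjusted p 0.068), without control 2 (0.428; log2 fold change -0.12), with library size alone as scaling (0.280; -0.09) and with a filter of 5 CPM in 2 libraries (0.053).

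Bcl2l1 (chr2:152780668-152831728, minus strand), which encodes BCL-XL, was at 24.1 and 27.4 CPM in controls and at 33.4 and 32.8 CPM in the labelled knockouts. The groups did not overlap, and the labelled knockouts lay close together. The rise in log2 units was 0.36 ± 0.10 (SE, n = 2 per group; edgeR adjusted p 0.0084), and 0.26 with an adjusted p of 0.178 without control 1. Within a library, the ratio of Mcl1 to Bcl2l1 per kilobase was 45.0 and 42.8 in controls and 29.0 and 31.5 in the labelled knockouts.

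Bcl2 (chr1:106538178-106714274, minus strand), the founding member of the family, was close to the limit of detection. It had 4 and 2 counts in controls and 8 and 16 counts in the labelled knockouts, or 0.181 and 0.082 CPM against 0.342 and 0.672 CPM. All labelled knockouts were above both controls, at a depth where 3 counts correspond to between 0.122 and 0.136 CPM. The gene did not pass the filter on low counts. The ratio of summed, scaled counts was 3.95, with an exact (Clopper-Pearson) 95% interval of 1.57 to 11.8 that covers counting error only. In the 5 alternatives that tested it, the adjusted p lay between 0.101 (edgeR without knockout replicate 1) and 0.406 (edgeR without control 2). The genes annotated inside the Bcl2 locus, among them the antisense D630008O14Rik, had no counts.

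Hrk (chr5:118164648-118189478, plus strand), also called Harakiri, encodes a BH3-only protein that binds BCL-2 and BCL-XL and is best known from neurons deprived of growth factor. It had 284 and 245 counts in controls against 27 and 37 in the labelled knockouts, which is 12.9 and 10.0 CPM against 1.15 and 1.55 CPM. Each labelled knockout was far below both controls, and the gap between groups exceeded the gap within either. The change in log2 units was -3.07 ± 0.23 (SE, n = 2 per group; 95% interval -3.54 to -2.60; edgeR adjusted p 3.1e-09). By size it was the 22nd largest fall among the 17482 genes tested, and Hrk was the sole one of the 9 genes called with a change of at least 1 log2 unit. Of all genes tested, 8.08% were called with a change of that size, and 3.22% were called with a fall of that size. Over 12 alternative settings the value ran from -3.30 to -2.87.

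Pmaip1, on chromosome 18, which encodes NOXA, a BH3-only protein that binds MCL1, was at 40.4 and 40.5 CPM in controls and at 24.5 and 17.4 CPM in the labelled knockouts. The controls were nearly identical, and the labelled knockouts differed from each other but lay below both. Its log2 fold change was -0.95 ± 0.12 (edgeR adjusted p 5.0e-06), and it ran from -1.22 without knockout replicate 1 to -0.72 without knockout replicate 2.

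Bcl2l11 (chr2:128126038-128162547, plus strand) encodes BIM, a BH3-only protein that binds all guardians and can engage BAX and BAK. Its level was 37.6 and 41.3 CPM in controls and 55.7 and 51.4 CPM in the labelled knockouts, with no overlap. The log2 fold change was 0.44 ± 0.09 (edgeR adjusted p 4.8e-04), and the call held in all 12 alternatives, with adjusted p up to 0.019.

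Bbc3 (chr7:16308393-16318205, plus strand) encodes PUMA, a BH3-only protein made in response to p53. It was at 9.15 and 13.2 CPM in controls and at 13.9 and 15.5 CPM in the labelled knockouts. The groups did not overlap, but control 2 lay closer to the labelled knockouts than to control 1. The log2 fold change was 0.39 ± 0.15 (95% interval 0.07 to 0.72), with an edgeR adjusted p of 0.057. It passed the threshold in 6 of 12 alternatives, and the value ran from 0.15 without control 1 (adjusted p 0.612) to 0.68 without control 2 (0.003).

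Bid (chr6:120891930-120916853, minus strand) encodes a BH3-only protein that caspase-8 cleaves, so that it links death receptors to mitochondria. It was at 25.7 and 28.6 CPM in controls and at 27.1 and 27.7 CPM in the labelled knockouts. The groups overlapped. The log2 fold change was 0.01 ± 0.10, with a 95% interval of -0.20 to 0.22 and an edgeR adjusted p of 0.939. The gene model Gm44260, on the same strand within Bid, had 108 and 126 counts in controls and 178 and 151 in the labelled knockouts.

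The 5 BH3-only genes differed in direction, so their sum moved less than their makeup. Per kilobase their sum was 33.3 and 35.998 CPM in controls and 30.3 and 28.2 CPM in the labelled knockouts. Pmaip1 made up 44.5% and 41.2% of that sum in controls and 29.6% and 22.6% in the labelled knockouts. For Hrk the shares were 6.80% and 4.89% against 0.671% and 0.972%, and for Bcl2l11 14.1% and 14.3% against 22.9% and 22.7%. Of the summed level of all 10 genes, BH3-only genes held 10.6% and 10.8% in controls and 10.3% and 9.13% in the labelled knockouts, and the effectors 12.2% and 11.1% against 15.1% and 15.3%. These shares are descriptions and are not independent of each other, since they add up to the whole. BH3-only genes outside the 10, such as Bmf, were not in these sums, so the shares also depend on which genes were listed.

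**Figure D2:**
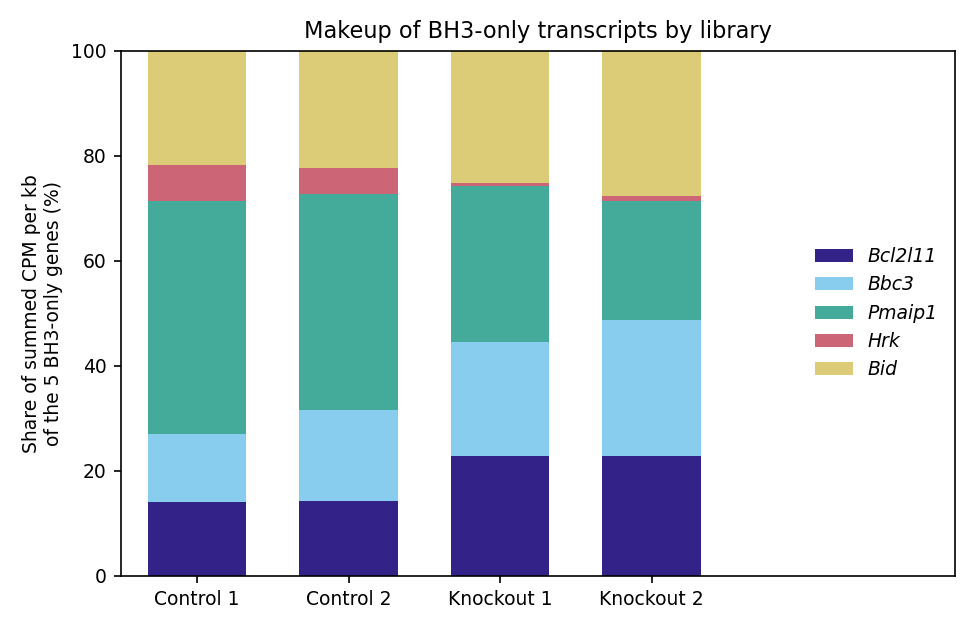
Share of each of 5 BH3-only genes in their summed CPM per kilobase of exon, in percent, with 1 bar for each of the 4 libraries. The Pmaip1 share is 44.5% and 41.2% in controls and 29.6% and 22.6% in the labelled knockouts, and Hrk shrinks to under 1% there.

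Of the effector genes, Bak1 (chr17:27019810-27029009, minus strand) encodes BAK, which sits in the outer mitochondrial membrane, and Bax (chr7:45461697-45466898, minus strand) encodes BAX, which moves there from the cytosol. Bak1 was at 35.5 and 28.4 CPM in controls and at 42.9 and 56.5 CPM in the labelled knockouts. The groups did not overlap, and the spread within each was wide. The Bak1 log2 fold change was 0.64 ± 0.12 (edgeR adjusted p 2.8e-04), the largest rise of the 9 tested genes, and 0.43 without knockout replicate 2. Ggnbp1, annotated on the opposite strand across the whole of Bak1, went the other way, from 190 and 226 counts to 142 and 141 counts (log2 fold change -0.57, edgeR adjusted p 0.011). Whether counting used strand is not given in the sources used here.

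Bax was at 37.0 and 39.98 CPM in controls and at 41.8 and 37.5 CPM in the labelled knockouts, so the groups overlapped. Its log2 fold change was 0.04 ± 0.09 (95% interval -0.15 to 0.23; edgeR adjusted p 0.759). The ratio of Bax to Bak1 per kilobase was 1.59 and 2.15 in controls and 1.49 and 1.01 in the labelled knockouts. Across the 9 tested genes the groups did not overlap for 7, where 66.6% of all genes tested did not.

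**Figure D3:**
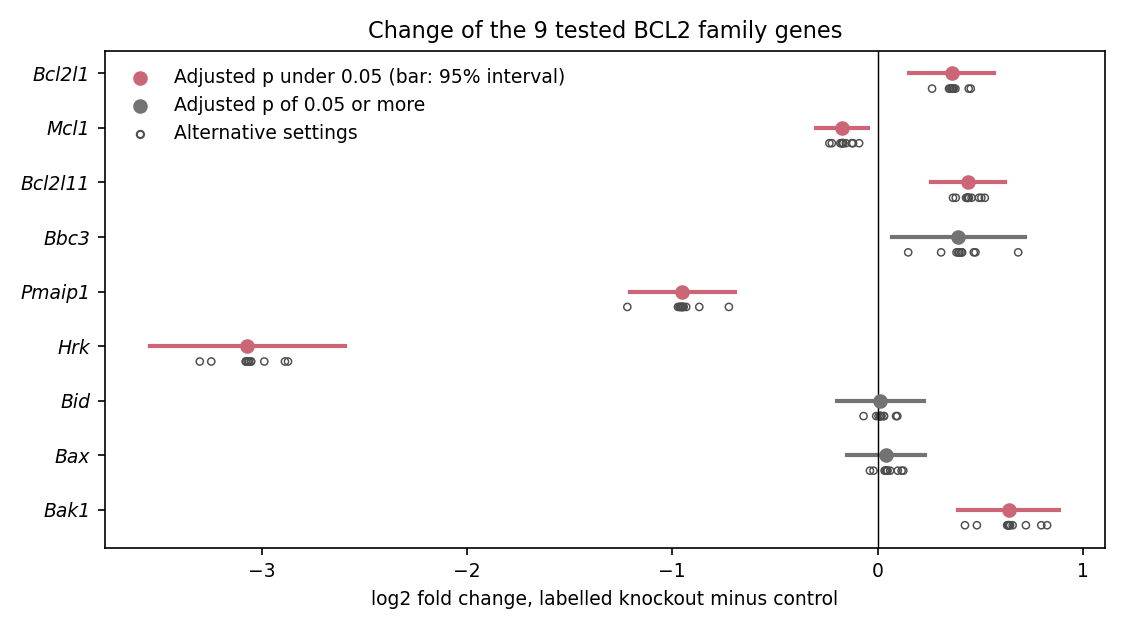
Log2 fold change (labelled knockout minus control, n = 2 per group) of 9 tested BCL2 family genes, with 95% intervals as bars, and the values under 12 alternative settings as open circles below each. Hrk lies at -3.07 and Pmaip1 at -0.95, Bak1 at 0.64, and the intervals of Bid and Bax span 0.

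Few of the other genes of the family passed the test. Of 19 on the list, 13 were tested, of which 1 fell and 0 rose (7.69% called, against 33.6% of all genes tested; edgeR), and the median log2 fold change was -0.05 against 0.00 for all genes tested. The gene that fell was Bmf, a BH3-only gene whose product binds guardians after loss of attachment. It went from 83.3 and 88.6 CPM in controls to 39.9 and 37.0 CPM in the labelled knockouts (log2 fold change -1.16 ± 0.08, adjusted p 9.0e-10). Leaving out knockout replicate 1 gave 2 higher and 3 lower calls in this list, and leaving out knockout replicate 2 or scaling by library size alone gave 1 higher call. The mouse Bcl2a1 genes, guardians of blood cells, had no counts.

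Genes of the apoptosome, the caspases and their inhibitors went both ways. All 21 were tested, and 5 rose and 5 fell (47.6% called, against 33.6% of all genes tested; median -0.01). Cycs, which encodes cytochrome c, rose from 44.4 ± 5.68 to 60.3 ± 7.81 CPM (SD, n = 2; log2 fold change 0.44 ± 0.10, edgeR adjusted p 0.0015), and Birc6, a very large inhibitor of caspases, from 505.4 ± 7.11 to 653.8 ± 2.16 CPM (0.37 ± 0.06). Pidd1, which activates caspase-2, rose from 28.2 ± 0.980 to 37.8 ± 1.35 CPM, and the mitochondrial nuclease gene Endog from 2.11 ± 0.156 to 4.24 ± 0.066 CPM. Casp2 at 62.5 and 52.8 CPM and Htra2 at 8.65 and 6.27 CPM in controls and in the labelled knockouts were called lower, and each call was lost in 5 of 12 alternatives. The number of lower calls was 1 with DESeq2, with library size alone and without control 1, 3 without control 2 and 2 without knockout replicate 2.

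Partners at the mitochondrial membrane and the endoplasmic reticulum had 1 higher and 5 lower calls of 20 tested (30% called, close to the 33.6% of all genes tested; median -0.06). The channel gene Vdac1 fell from 544.8 ± 0.582 to 469.7 ± 16.6 CPM, Mtch2, whose product recruits BID, from 175.5 ± 1.07 to 139.0 ± 17.03 CPM, and the calcium channel genes Itpr1 and Itpr3 from 208.6 and 117.5 to 166.1 and 95.9 CPM. Bag3, a co-chaperone gene, rose from 29.2 ± 0.580 to 37.7 ± 1.35 CPM. Vdac1 was not called without control 1, without control 2 or with library size alone, Itpr3 not without control 1 and Bag3 not without control 2. Calls were 2 lower without control 1, 0 higher and 3 lower without control 2, and 2 higher without either knockout library; library size alone gave 4 higher and 3 lower.

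In the death receptor pathway, 2 of 13 tested genes fell and 0 rose (15.4% called, against 33.6% of all genes tested; median -0.13). Cflar, which encodes the caspase-8 inhibitor cFLIP, fell from 26.6 and 22.6 CPM in controls to 13.8 and 13.3 CPM in the labelled knockouts (log2 fold change -0.86 ± 0.12, edgeR adjusted p 1.4e-05). Tnfrsf1b, a TNF receptor gene, fell from 19.9 ± 2.60 to 12.9 ± 1.12 CPM (-0.63 ± 0.13). There was 1 higher call without knockout replicate 1 and with library size alone.

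Bbc3, Pmaip1 and Bax are textbook targets of p53, so the other genes of that response were read beside them. Of 24 tested, 14 rose and 3 fell (70.8% called, against 33.6% of all genes tested, of which 16.5% were higher and 17.2% lower; median log2 fold change 0.30). Mdm2, which restrains p53, rose from 118.7 ± 12.5 to 218.9 ± 5.96 CPM (0.88 ± 0.07, edgeR adjusted p 1.5e-08), as did the kinase gene Plk2 from 23.1 ± 1.63 to 52.0 ± 3.23 CPM (1.17 ± 0.09). Gtse1 rose from 128.4 ± 3.08 to 212.3 ± 2.48 CPM and Ccng1, a cyclin gene, from 280.6 ± 15.8 to 439.0 ± 15.2 CPM. Trp53i11 fell from 46.3 ± 0.571 to 23.2 ± 2.72 CPM, Rrm2b, which supplies nucleotides for DNA repair, from 16.2 ± 1.35 to 11.02 ± 1.34 CPM, and Mdm4 from 612.1 ± 35.1 to 500.2 ± 48.4 CPM, a call lost without control 2. Beside these, the log2 fold changes of Pmaip1, Bax and Bbc3 were -0.95, 0.04 and 0.39.

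Other known regulators of the family had 7 higher and 10 lower calls of 27 tested (63% called, against 33.6% of all genes tested; median 0.03). Atf4, a transcription factor gene of the integrated stress response, fell from 215.2 and 201.6 CPM in controls to 119.7 and 126.9 CPM in the labelled knockouts (log2 fold change -0.76 ± 0.07, edgeR adjusted p 3.7e-08). Its target Trib3 fell from 17.9 ± 2.75 to 8.54 ± 1.34 CPM (-1.06 ± 0.15), the kinase gene Pim3 from 135.7 ± 2.48 to 91.0 ± 2.85 CPM and Stat3, the effector of LIF, from 144.8 ± 2.87 to 105.7 ± 5.92 CPM. Myc rose from 7.36 ± 0.028 to 13.5 ± 1.06 CPM (0.87 ± 0.15). Usp9x, which removes ubiquitin from MCL1, rose from 1183 ± 3.57 to 1360 ± 20.5 CPM, Ywhaz from 568.1 ± 17.3 to 690.3 ± 64.5 CPM and Akt1 from 36.4 ± 0.526 to 44.8 ± 1.79 CPM. These 3 calls were lost without control 1, and those of Usp9x and Akt1 also without control 2. Higher calls numbered 1 without control 1, 2 without control 2 and 4 with DESeq2.

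**Figure D4:**
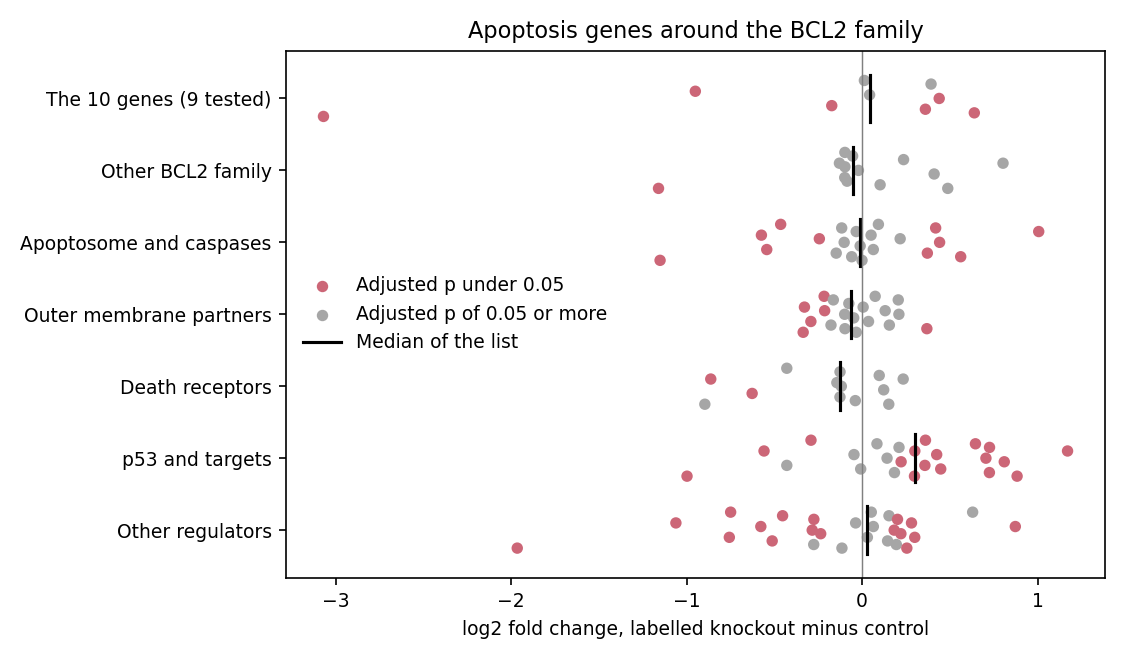
Log2 fold change (labelled knockout minus control, n = 2 per group) of each tested gene in 7 lists, 1 point per gene, with the list's median as a black line; vertical scatter within a list has no meaning. Hrk is the leftmost point at -3.07, and the p53 list has its median at 0.30.

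Genes with a pattern closest to that of a member were found by the distance between log2 CPM profiles. Each profile was centred on its own mean over the 4 libraries. The search covered 12411 genes with at least 1 CPM on average. Symbols with the form of a predicted model, Rik clone, pseudogene or identifier were left out of it. Closest to Hrk were Chac1 (distance 0.30 log2 units), which encodes an enzyme that degrades glutathione, Vmn2r1 (0.46), a vomeronasal receptor gene, and Gpr139 (0.47), a receptor gene. Chac1 was at 19.4 and 13.7 CPM in controls and at 1.32 and 1.93 CPM in the labelled knockouts, so that it shared with Hrk the higher control 1 and the higher knockout replicate 2. Closest to Bak1 were Enox1, Plekhg6 and Cdc14a (distances of 0.091 to 0.098), all highest in knockout replicate 2; Plekhg6 itself was not called (adjusted p 0.074 by edgeR). With 4 libraries in 2 groups, likeness mostly restates the size of the group difference.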

How the data were processed

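RNA was measured in 4 libraries of E14 embryonic stem cells, from ribosomal-RNA-depleted total RNA with random priming, per the labels' protocols. The authors deposited whole-number counts per gene symbol, not normalized, in 1 table. Per the submitters' processing notes, cutadapt, HISAT2, featureCounts and mm10 were used; the sources used here give no versions, annotation, strand setting or handling of multi-mapped reads. Column names carry OK where titles carry KO, and were matched by group word and number.

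With edgeR 4.0.16 (R 4.3.3), filterByExpr kept genes by a minimum count of 10 and a total of 15, TMM scaled the totals of all symbols, and the 2-sided quasi-likelihood F test had the group as its sole term (prior count 0.125). Each SE is the log2 fold change over the root of F. The test was tried on simulated data first. Alternatives used DESeq2 1.42.0, limma-voom (limma 3.58.1), other scalings and filters, a replicate block, and each library left out. Exon lengths, positions and overlaps came from GENCODE M21 (mm10), promoters from RefSeq GRCm38.p6. Between replicates, chi-square per degree of freedom was 3.37 (controls) and 11.5 (knockout), more than counting error alone gives. Technical spread can raise it too, so it cannot tell separate cultures from technical repeats. Members and lists were chosen with earlier results of these data known. Named genes are all members, Ssrp1, Supt16 and Usp7, the 3 genes closest in pattern to the members with the largest fall and rise, and from each list up to 4 called higher and 4 called lower with the smallest adjusted p; a gene named otherwise was chosen after its values were seen. Some genes are not reported here.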

Additional observations from a re-analysis of the deposited data

How the results depend on the processing

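Hrk, Pmaip1, Bcl2l11 and Bak1 were called in the same direction under all 12 alternatives; Bcl2l1 was called in 11 and Mcl1 in 8, and no tested member that was called changed sign. Members called higher numbered between 2 and 4 when each library was left out in turn, and members called lower between 2 and 3. Over all genes, higher calls ranged from 1915 to 2995 with each library left out, with the lowest value without control 1, and DESeq2 called 1977 genes lower against 3000 by edgeR. With library size alone as scaling, 63.7% of calls were higher against 48.95%, and the median of all genes moved by 0.08 log2. Ranking by the longest transcript in place of all exons exchanged the neighbours Bcl2l11 (place 7) and Bbc3 (place 8) in controls, and in the labelled knockouts moved Pmaip1 from place 5 to 8 and Bcl2l1 from 6 to 4. Ratios and shares per kilobase were taken with all exons alone, and their sizes depend on that choice of length. By the longest transcript, Bcl2l1 in controls stood at 10.0 CPM per kilobase in place of 5.62, while Mcl1 stayed at 246.3. Of 144 list counts under an alternative, 123 stayed within 1.5 times the reported count. With the replicate number as a block, members called higher were 4 (Bbc3 added, adjusted p 0.013) and called lower 3, and genes called were 3072 higher and 3216 lower; the labels give no pairing, and deviations of same-numbered libraries correlated at 0.007. With 2 libraries a group, small differences such as those of Bid and Bax may lie below detection, and Bcl2 is limited by its counts.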

Other observations

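Genes near the members were read for comparison, and only those whose symbol belongs to 1 gene in GENCODE M21 were counted. Within 250 kb of Hrk (chromosome 5, 118164648 to 118189478, mm10), 6 genes were tested, of which 2 were called lower and 0 higher (edgeR), a share close to the 33.6% called over all genes tested, with log2 fold changes from -0.61 to -0.12. The lowest was Fbxw8, a subunit gene of a ubiquitin ligase, which went from 80.3 to 52.7 CPM (adjusted p 4.8e-06). Near Bak1, 9 such genes were tested, with 1 called higher and 3 lower, against 16.5% higher and 17.2% lower over all genes tested. Ggnbp1, which overlaps Bak1 and was called lower (log2 fold change -0.57), was left out by that rule. The lowest of the 9 was Crebrf, which encodes a regulator of the unfolded protein response, from 249.8 to 152.2 CPM (-0.71). Around Bcl2l1, 2 of 9 tested genes were called higher and 0 lower, again against 16.5% higher and 17.2% lower over all genes tested. These genes were chosen by position, and their values were seen before they were named.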
